A study of Mus musculus with 44 samples.

Results

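The 37 genes of the mouse mitochondrial genome were examined in m6A profiles of sorted skeletal cells. Members were the genes of the count table whose symbol began with mt- in lower case, and they were 37 of 46831 named genes. They comprised 13 protein-coding genes, 2 rRNAs and 22 tRNAs, and all 37 matched chrM of GENCODE release 21 of mouse. Libraries were made by SLIM-seq, in which RNA from few cells is enriched with an antibody against N6-methyladenosine (m6A, IP libraries) and sequenced beside the RNA before enrichment (input libraries). There were 2 IP and 2 input libraries from each of 8 wild-type (WT) populations, sorted from long bones of C57Bl6 mice on postnatal day 3, and from each of 3 Mettl3KO populations, 44 libraries in all.

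The 3 stem and progenitor populations were SSC, pBCSP and BCSP, and the 5 downstream populations were PCP, THY, BLSP, 6C3 and HEC. According to the study's methods, WT mice carried Mettl3 fl/fl without Cre and Mettl3KO mice carried Mettl3 fl/fl with Col2a1-Cre. Both genotypes therefore share the floxed allele, and deletion is limited to cells with a history of Col2a1 expression. Cells lacking CD45, Ter119 and Tie2 were sorted before the populations were divided, without regard to sex. All 44 libraries carry wild type as their labelled genotype, so that the 12 Mettl3KO libraries are known as such by title alone. The labels give 1 batch for all libraries and do not say how many animals were pooled, so the p-values below measure the spread between these samples.

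Mitochondrial DNA is transcribed from both strands into long precursors that are cut, largely at the tRNAs, into mRNAs, rRNAs and tRNAs. The mRNAs encode subunits of respiratory complexes I, III and IV and of the ATP synthase, and the rRNAs and tRNAs build the translation system of the organelle. METTL3 is the catalytic subunit of the main m6A writer of nuclear-encoded mRNA, whereas antibodies against m6A can also bind related adenosine methylations such as m6Am. The IP to input ratio below is the antibody enrichment of a transcript relative to the other transcripts of the library, not a count of methylated molecules.

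The targeted gene was examined first. Mettl3 in WT input libraries of the stem and progenitor populations was 17.6 and 19.2 CPM (counts scaled to a total of 1000000 per library) for BCSP, 11.9 and 16.3 for pBCSP, and 14.0 and 15.1 for SSC. In the input libraries labelled Mettl3KO, it was 15.2 and 18.01 CPM for BCSP, 21.5 and 24.02 for pBCSP, and 14.7 and 17.99 for SSC. Mettl3 was thus not lower in the libraries labelled Mettl3KO (log2 difference 0.25, SE 0.17, edgeR quasi-likelihood test, adjusted p = 0.449). Counts over the whole gene do not show whether a floxed exon is missing, and every direction between genotypes below is a difference between libraries so labelled.

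Total counts ranged from 19795666 to 44046651 in the 16 WT input libraries and from 16480027 to 35856651 in the 16 WT IP libraries. Summed cartilage markers (9 genes such as Col2a1 and Acan) were 102414 to 117130 CPM in WT stem and progenitor inputs and 9357 to 98118 CPM in downstream inputs. Summed osteoblast markers (7 genes such as Col1a1) ran the other way, 7630 to 14866 against 72336 to 135336 CPM. Each of these sums leaned on 1 gene. Over the 16 WT inputs Col2a1 had a median of 63842 CPM, beside 17.0 to 4421 CPM for the other cartilage markers. Col1a1 had a median of 80073 CPM, beside 6.48 to 1018 CPM for the other osteoblast markers. Erythroid markers (7 of 8 listed genes were in the table) summed to 0.711 to 5.56 CPM in stem and progenitor inputs against 16.6 to 171 CPM downstream, with Slc4a1 at 0 in 6 of the 16 inputs. Endothelial markers summed to 6.77 to 30.0 against 25.7 to 139 CPM, leukocyte markers to 14.1 to 26.5 against 13.0 to 30.0 CPM, and muscle markers to 19.4 to 51.2 against 5.57 to 16.3 CPM. Of the muscle markers, Tnnt3 had 3.64 to 47.9 CPM and Acta1 0.495 to 7.68 CPM over the 16 WT inputs. The other muscle markers had medians of 0 to 0.316 CPM there. The part of these cells in the mitochondrial values was not tested, and in bulk libraries fewer cells of a type cannot be told apart from less RNA per cell.

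Among the 37 genes, counts were concentrated in a few long transcripts. Over the 44 libraries mt-Rnr2 (the 16S rRNA) had 11545432 counts, mt-Cytb (cytochrome b of complex III) 4374628, mt-Co1 (a catalytic subunit of complex IV) 3003294 and mt-Nd1 (a complex I subunit) 2088763. Among the tRNAs mt-Tp (proline) led with 5430 counts. Of the other tRNAs, mt-Tq (glutamine) had 416 counts, mt-Tc (cysteine) 143 and mt-Te (glutamate) 105. The remaining 18 tRNAs had 61 counts or fewer each, mt-Tf (phenylalanine), the next in WT input level, had 22, and mt-Tw, mt-Ty, mt-Tk, mt-Tg and mt-Th had 0 in every library. A count of 0 allows up to 3 counts, which is 0.0681 to 0.152 CPM in the WT inputs and 0.0837 to 0.182 CPM in the WT IP libraries, and this limit covers counting error only.

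The sequences of the 2 rRNAs are shown where they hold GGACT, a frequent form of the DRACH context of METTL3 sites in nuclear-encoded mRNA, because the rRNAs were among the most strongly enriched transcripts. Each run holds the motif in capitals with 18 bases on either side, from GRCm38 on the plus strand, with mt-Rnr1 (the 12S rRNA) at chrM:213-253, chrM:570-610 and chrM:816-856 and mt-Rnr2 at chrM:2040-2080.
mt-Rnr1 position 162: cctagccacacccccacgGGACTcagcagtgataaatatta
mt-Rnr1 position 519: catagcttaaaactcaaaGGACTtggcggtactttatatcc
mt-Rnr1 position 765: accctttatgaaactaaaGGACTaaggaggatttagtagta
mt-Rnr2 position 965: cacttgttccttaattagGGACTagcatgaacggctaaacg

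The motif was searched on the transcribed strand of the 15 mRNA and rRNA genes and gave 12 sites in 7 genes, a density of 0.861 per kb against 1.07 per kb over the protein-coding transcripts of the annotation. In windows of 1000 bases, 2 of 6 mitochondrial windows and 64.4% of 59925 windows of protein-coding transcripts held it. A match is a description of the sequence and not a methylated site. The runs of mt-Nd2 (a complex I subunit with a high ratio, at chrM:4274-4314 and chrM:4400-4440), mt-Co3 (a complex IV subunit with 3 sites, 1 of them shown, at chrM:8820-8860) and mt-Nd4 (a complex I subunit, at chrM:11187-11227) show the motif in mRNAs, again on the plus strand with the motif in capitals.
mt-Nd2 position 379: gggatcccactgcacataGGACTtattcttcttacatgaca
mt-Nd2 position 505: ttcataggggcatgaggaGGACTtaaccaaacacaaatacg
mt-Co3 position 232: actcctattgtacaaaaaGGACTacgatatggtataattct
mt-Nd4 position 1039: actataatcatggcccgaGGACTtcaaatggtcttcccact

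In the WT inputs the level per length differed widely between genes of the same genome. The mean was 1666 CPM per kb for mt-Cytb, 1625 for mt-Rnr2, 775 for mt-Nd1 and 731 for mt-Co1 (16 libraries each). An intermediate group held mt-Rnr1 at 228, mt-Nd4 at 177, mt-Nd2 at 141, mt-Nd5 at 138 and mt-Nd6 at 117 CPM per kb. The remaining 6 mRNAs were far lower, with mt-Atp6 (ATP synthase) at 13.0, mt-Co3 at 8.37, mt-Co2 (complex IV) at 5.93, mt-Atp8 (ATP synthase) at 5.19, mt-Nd3 at 1.37 and mt-Nd4l at 0.903 CPM per kb. These 6 genes, with tRNAs between some of them, lie next to one another on the genome, with mt-Co1 on one side and mt-Nd4 on the other. The plot of level per length shows this trough in IP as in input.

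**Figure D1:**
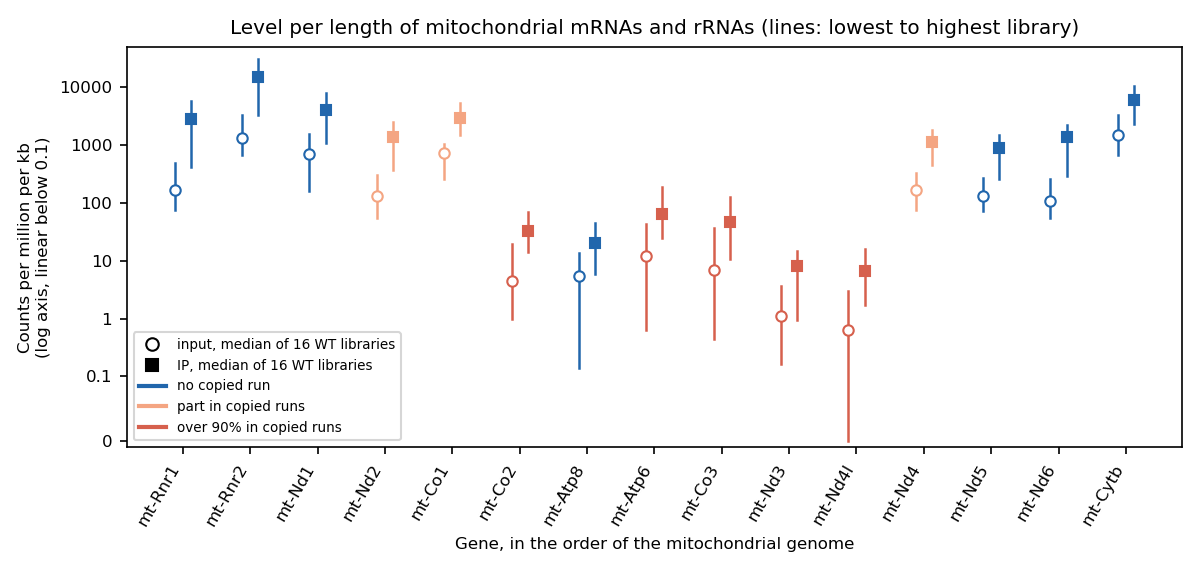
Level of each mitochondrial mRNA and rRNA in CPM per kb, on a log axis that is linear below 0.1, in the order of the genome (open circles, median of 16 WT inputs; squares, median of 16 WT IP libraries; lines, lowest to highest library). Genes with over 90% of their length in runs copied in a nuclear gene (red) sat near the bottom, with mt-Atp8 (blue) beside them without an annotated copy.

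Of the 6 low genes, 5 have near-complete copies in the nuclear genome. Exact runs of 100 or more bases shared with an annotated pseudogene covered 99.6% of mt-Co2, 99.6% of mt-Atp6, 99.9% of mt-Co3, 98.3% of mt-Nd3 and 99.0% of mt-Nd4l. They also covered 63.6% of mt-Nd4, 48.1% of mt-Co1 and 12.4% of mt-Nd2, and none of mt-Rnr1, mt-Rnr2, mt-Nd1, mt-Nd5, mt-Nd6, mt-Cytb or mt-Atp8. The copies Gm28439, Gm10222, Gm28438, Gm28437, Gm10925, Gm28661 and Gm29216 lie in that order on the minus strand of chromosome 1, from the start of Gm28439 at 24611535 to the end of Gm29216 at 24616197. How counting treated reads that match both places is not given in the sources used here, so the levels of these mRNAs are uncertain. mt-Atp8, which is as low without an annotated copy, is uncertain too because it overlaps mt-Atp6. Copies were sought in annotated transcripts alone. mt-Atp8 starts between mt-Co2 and mt-Atp6. The stretch between the copies of those genes, from the end of Gm10925 at 24614651 to the start of Gm28661 at 24614885, was not searched.

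The start of mt-Co2 is printed beside its copies to show what a read could match (GRCm38, mt-Co2 at chrM:7013-7102 plus strand, Gm28661 at chr1:24615476-24615565 minus strand, Gm13341 at chr2:22587873-22587962 minus strand). Capitals mark bases that differ from the mitochondrial gene.
mt-Co2: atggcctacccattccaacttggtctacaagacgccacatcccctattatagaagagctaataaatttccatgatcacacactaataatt
Gm28661: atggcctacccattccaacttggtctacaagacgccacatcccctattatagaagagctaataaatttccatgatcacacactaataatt
Gm13341: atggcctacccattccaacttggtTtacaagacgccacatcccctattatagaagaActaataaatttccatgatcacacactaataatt

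Over these 90 bases Gm28661 was equal to mt-Co2 at all 90 positions, and Gm13341 was equal at 88, with the substitutions C25T and G57A counted from 1 at the start codon. Gm28661 had a mean input level of 4.37 CPM per kb, close to the 5.93 of mt-Co2, and Gm13341 had 0.0720. Gm10925 (a copy of mt-Atp6) had 12.3 CPM per kb beside 13.0 for its mitochondrial gene, and Gm28437 (a copy of mt-Co3) had 5.29 beside 8.37. mt-Cytb, in contrast, is copied less closely, in Gm11410 with 84 of the 89 bases compared at its start equal (chr4:80003990-80004078 plus strand, mt-Cytb at chrM:14145-14234), and it was the gene with the highest level per length.
mt-Cytb: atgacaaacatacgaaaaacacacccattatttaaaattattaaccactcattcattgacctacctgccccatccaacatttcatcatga
Gm11410: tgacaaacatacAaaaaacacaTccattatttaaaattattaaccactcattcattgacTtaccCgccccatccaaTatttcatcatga

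Mitochondrial transcripts were a small share of input counts in all 8 WT populations. The share in the 2 WT input libraries was 0.428% and 0.609% for SSC, 0.717% and 0.576% for BCSP, and 0.427% and 0.481% for pBCSP. Downstream it was 1.41% and 1.07% for BLSP, 0.919% and 0.627% for HEC, 1.07% and 0.631% for PCP, 0.287% and 0.587% for 6C3, and 0.869% and 0.955% for THY. BLSP was highest and 6C3 lowest by mean (1.24% and 0.437%), and the replicates of 6C3 differed from each other more than those of SSC or pBCSP did. The mean over the 3 stem and progenitor populations was lower than that over the 5 downstream populations by 0.303 percentage points, which was not beyond what regrouping the populations gives (value -0.303, two-sided exact permutation test over 56 splits of the 8 populations, p = 0.143).

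In the IP libraries the order of the populations was clearer. The share was 1.56% and 2.92% for SSC, 1.58% and 1.99% for BCSP, and 1.56% and 1.99% for pBCSP. It was 7.71% and 8.17% for BLSP, 5.14% and 4.67% for HEC, 9.10% and 5.18% for PCP, 5.27% and 4.53% for 6C3, and 5.44% and 6.87% for THY. The 6 stem and progenitor libraries did not overlap with the 10 downstream libraries. The difference of the population means was -4.27 percentage points (two-sided exact permutation test, p = 0.0179, the smallest that 56 splits of the 8 populations can give). The plot of shares by library shows both assays.

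**Figure D2:**
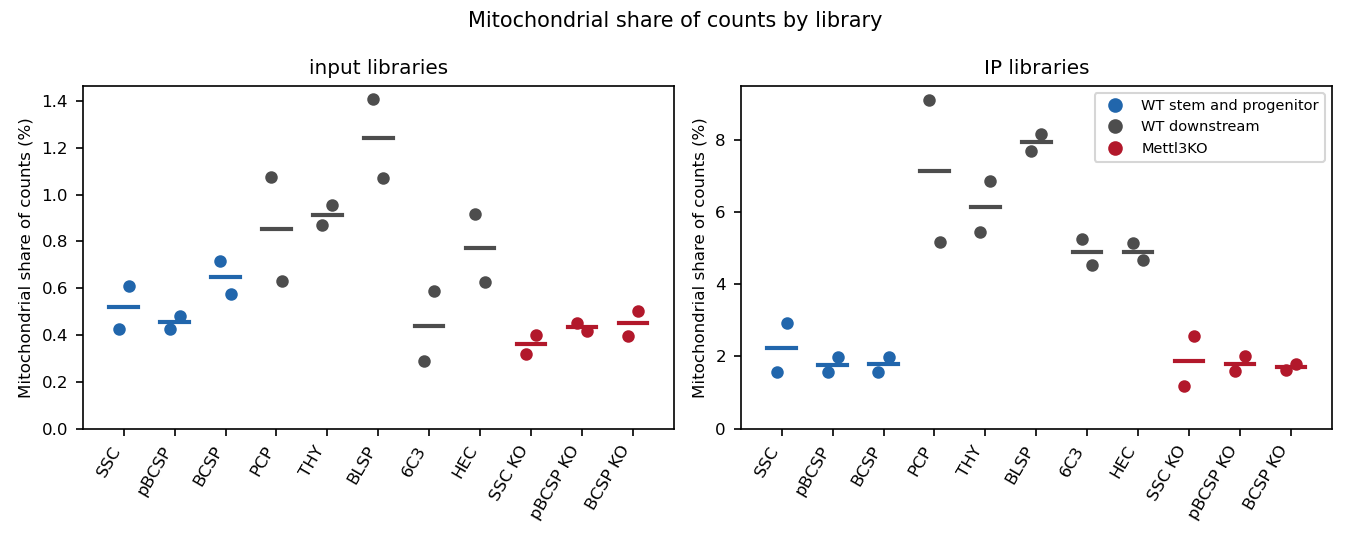
Mitochondrial share of counts in percent for each library (points) with the mean of the 2 replicates (bars), input on the left and IP on the right, each axis from 0. The WT stem and progenitor IP libraries sit at 1.56% to 2.92% and the WT downstream IP libraries at 4.53% to 9.10%, whereas the inputs of both groups overlap.

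Each class of mitochondrial gene was a larger share of IP than of input counts in all 8 WT populations. The ratio of the mean IP share to the mean input share for all mitochondrial genes was 2.76 in BCSP, 3.91 in pBCSP and 4.32 in SSC, and it was 6.35 in HEC, 6.40 in BLSP, 6.74 in THY, 8.38 in PCP and 11.2 in 6C3. On the log2 scale the mean over populations was 2.52 ± 0.65 for all genes, 2.10 ± 0.51 for protein-coding genes, 3.00 ± 0.75 for rRNAs and 2.47 ± 0.82 for tRNAs (SD, n = 8 populations). Each of these 4 means gave p = 0.00781 in a two-sided exact sign-flip permutation test, the smallest that exchanging the signs of 8 values can give. The high value of 6C3 rested on 1 input, since its replicate ratios were 18.4 and 7.71.

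The rRNAs also took a larger part of mitochondrial counts after enrichment. They were 27.4% to 45.6% of mitochondrial counts in the WT inputs (median 38.2%) and 36.1% to 65.9% in the WT IP libraries (median 55.2%). The difference of IP and input was positive in all 8 populations, from 7.03 to 20.8 percentage points with a mean of 15.2 (two-sided exact sign-flip permutation test, p = 0.00781; this test was added after the data were seen). mt-Cytb ran the other way, at 20.9% to 29.2% of mitochondrial counts in input and 10.5% to 23.6% in IP.

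For single genes, IP was compared with input by edgeR's quasi-likelihood test over the 32 WT libraries with population as a term, and 19 of the 37 genes passed the filter on low counts. All 19 were higher in IP at an adjusted p under 0.05, where 20.4% of the 25365 genes tested were higher. The 19 include the tRNAs mt-Tc and mt-Te, with 22 and 15 counts over the 16 WT inputs against 100 and 90 in IP. Both passed the filter through the IP libraries alone, so their calls carry no weight. The median log2 ratio was 2.69 over the 19 genes and 0.09 over all genes tested, and the genes that were filtered out were 18 tRNAs.

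mt-Rnr1, the complex I mRNAs mt-Nd6 and mt-Nd2, and mt-Rnr2 were among the 5 genes with the highest ratios. mt-Rnr1 had 73.7 to 465 CPM in input (median 161) and 396 to 5588 CPM in IP (median 2711), with the highest inputs above the lowest IP libraries. Its log2 ratio was 3.25 (SE 0.18, edgeR adjusted p = 6.52e-17). mt-Rnr2 had 1052 to 5293 CPM in input (median 2145) and 5236 to 48362 CPM in IP (median 24178), a log2 ratio of 2.95 (SE 0.18). The pooled ranges of IP and input overlapped narrowly for both rRNAs.

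Of the complex I mRNAs, mt-Nd2 ranged from 57.6 to 316 CPM in input and from 392 to 2584 CPM in IP, without overlap, and had a log2 ratio of 3.06 (SE 0.14, edgeR adjusted p = 1.55e-18). mt-Nd6, the only protein-coding gene of the other strand, ranged from 28.3 to 133 CPM in input and 150 to 1160 CPM in IP, again without overlap, with a log2 ratio of 3.13 (SE 0.17). The log2 ratio was 2.98 (SE 0.49) for mt-Nd4l, 2.57 (SE 0.14) for mt-Nd4, 2.44 (SE 0.13) for mt-Nd5, 2.18 (SE 0.17) for mt-Nd1 and 2.18 (SE 0.41) for mt-Nd3. Complex I mRNAs thus spanned most of the range of the mRNAs, from 2.18 to 3.13.

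mt-Cytb, the complex III mRNA, had the lowest log2 ratio of the 19 genes. It ranged from 765 to 3795 CPM in input (median 1746) and from 2612 to 12055 CPM in IP (median 6797), with a log2 ratio of 1.74 (SE 0.12, edgeR adjusted p = 1.51e-14). Among complex IV mRNAs the log2 ratio was 1.99 (SE 0.14) for mt-Co1, 2.81 (SE 0.27) for mt-Co2 and 2.69 (SE 0.31) for mt-Co3. For the ATP synthase mRNAs it was 2.72 (SE 0.30) for mt-Atp6 and 2.14 (SE 0.38) for mt-Atp8. The 6 mRNAs with low counts had errors of 0.27 to 0.49, whereas the abundant mRNAs had errors of 0.12 to 0.17.

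**Figure D3:**
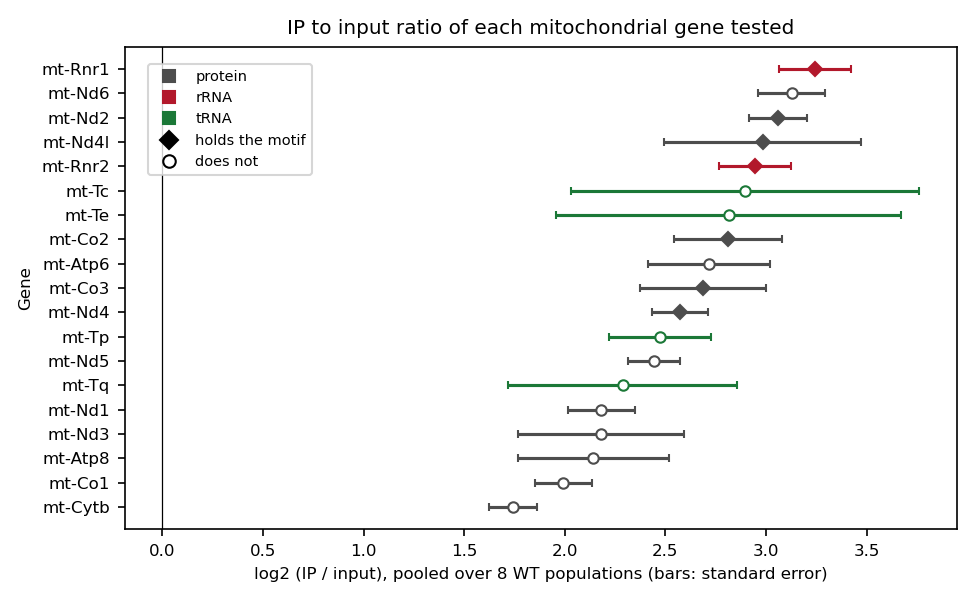
log2 ratio of IP to input for the 19 mitochondrial genes tested, pooled over 8 WT populations, with bars for the standard error and filled diamonds for genes that hold GGACT. mt-Rnr1 is highest at 3.25 and mt-Cytb lowest at 1.74, and no bar reaches 0.

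Among the 15 mRNA and rRNA genes, the 7 with GGACT had log2 ratios of 2.57 to 3.25 (median 2.95) and the 8 without it 1.74 to 3.13 (median 2.18). The ranges overlap, because mt-Nd6 had no GGACT and a log2 ratio of 3.13. This grouping was chosen after the ratios were seen and is given as a description without a test. By runs copied in annotated genes, the log2 ratio was 2.18 to 2.98 (median 2.72) for the 5 genes over 90% copied. It was 1.99 to 3.06 (median 2.57) for 3 genes copied in part, and 1.74 to 3.25 (median 2.44) for 7 genes without such a run.

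The tRNAs that could be tested were all transcribed from the minus strand. mt-Tp ranged from 0.430 to 2.74 CPM in input and from 3.50 to 25.6 CPM in IP, without overlap, with a log2 ratio of 2.47 (SE 0.25, edgeR adjusted p = 2.97e-10). The log2 ratio was 2.90 (SE 0.86) for mt-Tc, 2.81 (SE 0.86) for mt-Te and 2.29 (SE 0.57) for mt-Tq. mt-Tc and mt-Te were tested only because of their IP counts, so their ratios could hardly have come out low. The sequence of mt-Tp is shown because it holds most tRNA counts, from GRCm38 at chrM:15356-15422 on the minus strand, with no part in capitals.
mt-Tp: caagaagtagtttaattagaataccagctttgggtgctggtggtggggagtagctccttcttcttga

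Whether counting used the strand is not given in the sources used here. Reads of the opposite strand that cross these tRNA genes, or of a precursor that has not been cut, could not be told apart from the tRNAs. The same limit holds for mt-Nd6, which is also transcribed from the minus strand.

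Within single populations the study's cut-off was applied, a log2 ratio above 1 at an unadjusted p under 0.05. Of 137 tests of mitochondrial genes in the 8 WT populations 116 were higher in IP and 0 lower, where 11.6% of all 134544 tests were higher. Some of these calls carry no weight, because genes nearly absent from input passed the filter through IP alone. In 6C3, mt-Te had 0 and 1 input counts against 9 and 14 in IP, and mt-Tq 6 and 1 against 27 and 20. In THY, mt-Tq had 0 and 7 against 29 and 25. By edgeR the calls were 18 of 18 genes for 6C3, 16 of 18 for PCP and for BLSP, 15 of 18 for HEC and 12 of 17 for THY, and they were 14 of 16 for pBCSP, 13 of 16 for SSC and 12 of 16 for BCSP. mt-Rnr1, mt-Rnr2, mt-Nd1, mt-Nd2, mt-Nd4, mt-Nd5, mt-Nd6, mt-Co1, mt-Co2 and mt-Cytb passed in 8 of 8 populations. mt-Nd3 and mt-Nd4l passed in 4 of 8. Over all genes tested, the share called higher ran from 6.67% in BCSP to 14.5% in 6C3. The share of all genes that passed in 8 of 8 or in 4 of 8 populations was not counted.

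BCSP had the lowest log2 ratio and 6C3 the highest for most of these genes. For mt-Rnr1 the log2 ratio ran from 2.02 in BCSP to 4.11 in 6C3, for mt-Nd6 from 2.17 to 3.96, for mt-Co1 from 1.07 to 2.91 and for mt-Cytb from 1.08 to 2.44 in the same populations. In 6C3 the low, copied genes reached log2 ratios of 5.56 (mt-Nd4l), 5.55 (mt-Co3), 5.20 (mt-Nd3) and 5.16 (mt-Atp6). There the first input library had only 0 counts of mt-Nd4l, 12 of mt-Co3, 2 of mt-Nd3 and 15 of mt-Atp6, so the values of 6C3 for these 4 genes rest on few reads.

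**Figure D4:**
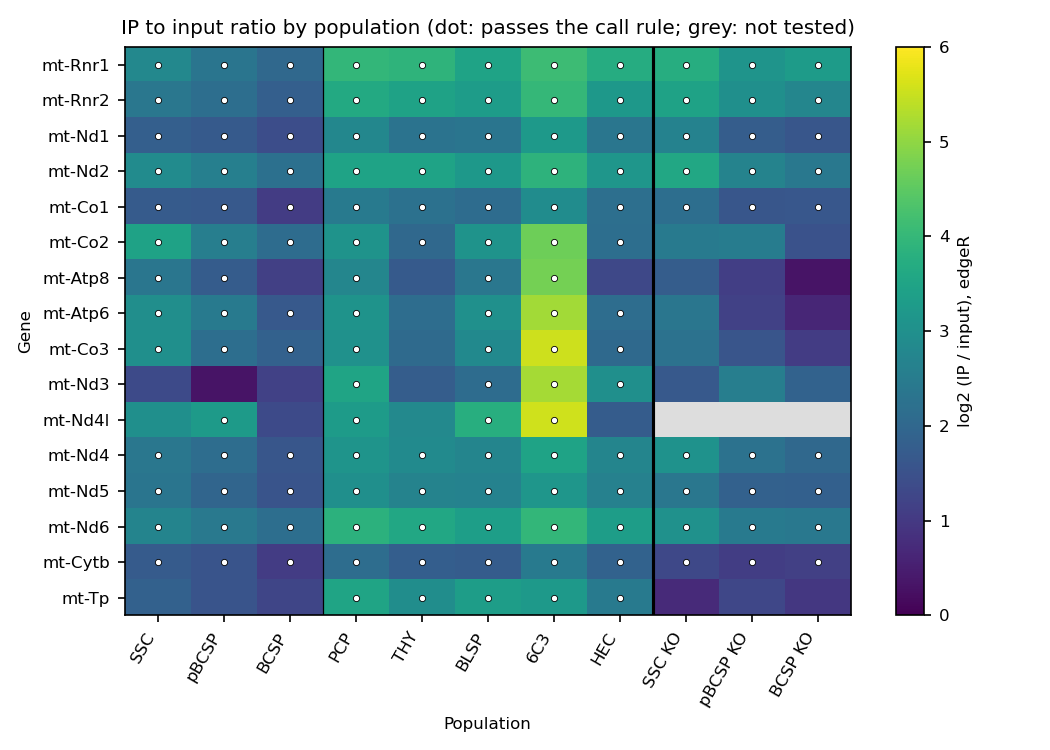
edgeR log2 ratio of IP to input for 15 mRNA and rRNA genes and mt-Tp (y axis) in 8 WT and 3 Mettl3KO populations (x axis), on a colour scale from 0, with a dot where the cut-off was passed and grey where a gene was not tested. The WT downstream populations are lighter, that is higher, than the WT stem and progenitor populations for the rRNAs, mt-Nd2 and mt-Nd6.

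In input, mitochondrial genes differed between stem and progenitor and downstream populations one by one. Of 17 genes tested, 7 were lower and 1 was higher in stem and progenitor cells (edgeR, adjusted p under 0.05), where 28.3% of 20060 genes were lower and 23.1% higher. The 7 include mt-Tq, which held 0 to 2 counts in each stem and progenitor input and passed the filter through downstream inputs. Its call carries no weight, and the share lower, 7 of 17, is read against that background with mt-Tq left aside. The median log2 difference was -0.35 over the 17 genes and -0.11 over all genes.

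mt-Rnr1 had 73.7 to 157 CPM in the 6 stem and progenitor inputs (median 107) and 143 to 465 CPM in the 10 downstream inputs (median 294), with overlap only between 143 and 157 CPM and a log2 difference of -1.27 (SE 0.17, edgeR adjusted p = 1.66e-05). mt-Rnr2 had 1093 to 2279 CPM (median 1702) against 1052 to 5293 CPM (median 3578), a log2 difference of -0.76 (SE 0.20, edgeR adjusted p = 0.00493). Both rRNAs were thus lower in stem and progenitor inputs, although for mt-Rnr2 the first 6C3 input was below all 6 of them and the second inputs of 6C3, HEC and PCP lay within their range. mt-Nd2 (-0.87), mt-Nd5 (-0.75), mt-Nd6 (-0.91) and mt-Cytb (-0.55) were lower as well, each with an SE of 0.14 to 0.20.

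mt-Atp6 was the gene that was higher, with 7.52 to 14.9 CPM in stem and progenitor inputs (median 10.3) against 0.430 to 29.0 CPM downstream (median 5.89). Its log2 difference was 1.01 (SE 0.35, edgeR adjusted p = 0.0257), the ranges overlap, and nearly all of the gene is copied in Gm10925. That call was lost without SSC WT input replicate 1, pBCSP WT input replicate 1 or BCSP WT input replicate 1, each left out alone (highest edgeR adjusted p = 0.0709). mt-Tq had a log2 difference of -2.54 (SE 1.01), on 0 to 2 counts in each stem and progenitor input, and its call was lost in all 16 fits that left out 1 library (edgeR adjusted p = 0.0530 to 1.00) and without a filter or with replicate number as a block. The abundant mt-Co1 (0.30, SE 0.15), mt-Nd1 (-0.59, SE 0.24) and mt-Nd4 (-0.12, SE 0.15) did not pass.

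The IP to input ratio itself was lower in stem and progenitor than in downstream populations, a comparison added after the data were seen. Ratios of all mitochondrial genes were 2.76 to 4.32 in the 3 stem and progenitor populations and 6.35 to 11.2 in the 5 downstream populations, without overlap. The difference in mean log2 ratio was -1.08 for all genes (p = 0.0179), -0.72 for protein-coding genes (p = 0.0357), -1.31 for rRNAs (p = 0.0179) and -1.39 for tRNAs (p = 0.0179), by two-sided exact permutation tests over 56 splits of the 8 populations. Adjusted over these 4 tests the p-values were 0.0238, 0.0357, 0.0238 and 0.0238 in the same exact tests. Summed cartilage, muscle, erythroid and osteoblast markers also separated these populations without overlap in input, as given above, and their part in the ratio was not tested.

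Per gene, the change of the ratio was tested in edgeR as the IP coefficient of the 3 populations minus that of the 5, also added after the data were seen. Of 19 genes tested 19 had a negative value, with a median of -0.82 beside -0.08 for all genes tested. The share of all genes with a negative value was not counted. In each WT stem and progenitor library mt-Te held 0 counts, mt-Tc 0 to 4 and mt-Tq 0 to 3. These tRNAs passed the filter through downstream libraries, so their signs carry no weight among the 19. The values of mt-Tc (SE 5823) and mt-Te (SE 7602) had errors too large to give a direction. Of the 19 genes 5 passed as lower, where 1.77% of 25365 genes were lower. The change in log2 ratio was -1.33 for mt-Rnr1 (SE 0.25, edgeR adjusted p = 0.00155), -1.28 for mt-Rnr2 (SE 0.27, edgeR adjusted p = 0.00444), -1.07 for mt-Nd6 (SE 0.26), -0.82 for mt-Nd4 (SE 0.22) and -0.75 for mt-Nd5 (SE 0.22). The least negative values belonged to mt-Co2 (-0.18, SE 0.47) and mt-Cytb (-0.43, SE 0.23), which did not pass. With replicate number as a block 9 genes passed, all lower, among them mt-Cytb. For this comparison the balance of all calls moved with the scaling, from 777 higher and 450 lower with TMM factors to 427 higher and 628 lower with DESeq2's size factors, while the calls of mitochondrial genes went from 5 to 8 lower and 0 higher. DESeq2's size factors moved the median of all genes by -0.16, and the part of scaling in the change of the mitochondrial genes was not tested.

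**Figure D5:**
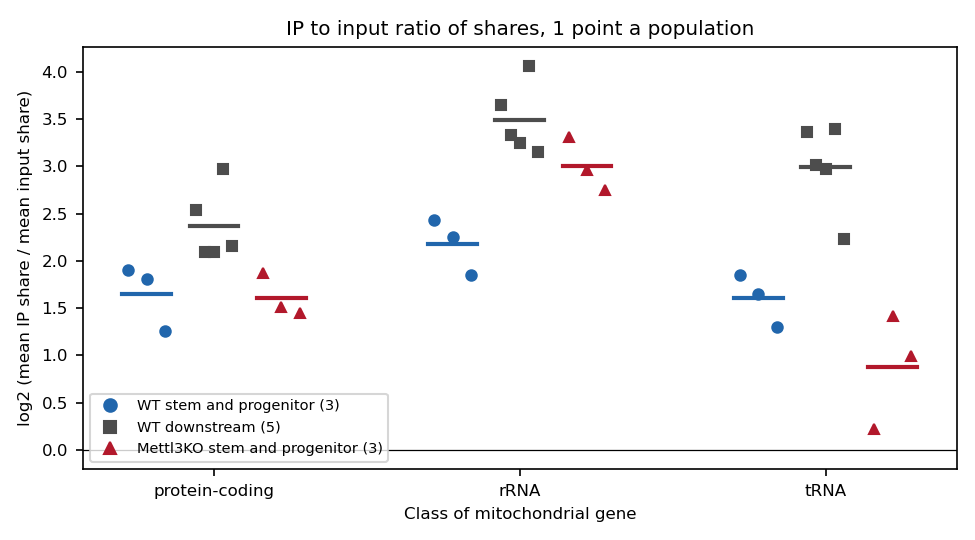
log2 of the mean IP share over the mean input share for protein-coding, rRNA and tRNA genes, 1 point a population (circles, 3 WT stem and progenitor; squares, 5 WT downstream; triangles, 3 Mettl3KO stem and progenitor) with bars for the means. The downstream rRNA points lie above the WT stem and progenitor points, and the Mettl3KO rRNA points lie above the WT stem and progenitor points and reach the lowest downstream ones.

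Between genotypes, the rRNAs were lower in the inputs labelled Mettl3KO. The mitochondrial share of input counts was 0.396% and 0.503% for BCSP, 0.449% and 0.419% for pBCSP and 0.320% and 0.402% for SSC labelled Mettl3KO, beside 0.717% and 0.576%, 0.427% and 0.481%, and 0.428% and 0.609% in WT. The mean difference was -0.125 percentage points (exact two-sided permutation test, genotypes exchanged inside each population, p = 0.0185, where 0.00926 is the smallest possible), and the ranges overlap. Without the 2 rRNAs, the mitochondrial share of input counts, Mettl3KO against WT, had a difference of -0.0577 points (same exact permutation test, p = 0.0926). The p rose above 0.05 in 5 of the 12 fits that left out 1 library (pBCSP WT input replicate 2, BCSP WT input replicate 1, SSC Mettl3KO input replicates 1 and 2, BCSP Mettl3KO input replicate 1), with a highest exact permutation p of 0.0926.

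Per gene in input, 5 of 15 genes tested were lower and 0 higher, where 2.64% of 18655 genes were lower (edgeR, adjusted p under 0.05). mt-Rnr1 was 46.3 to 83.9 CPM in Mettl3KO (median 58.4) and 73.7 to 157 CPM in WT (median 107), a log2 difference of -0.77 (SE 0.15, edgeR adjusted p = 0.00886). mt-Rnr2 was 795 to 1424 CPM (median 921) against 1093 to 2279 CPM (median 1702), a log2 difference of -0.68 (SE 0.17, edgeR adjusted p = 0.0311). For both rRNAs the lower part of the WT range overlapped with Mettl3KO. mt-Co1 (-0.55, SE 0.14), mt-Nd5 (-0.55, SE 0.12) and mt-Nd1 (-0.47, SE 0.13) were lower too, and mt-Cytb had a log2 difference of 0.14 (SE 0.13) and did not pass.

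The number of these calls depended on single libraries. It was 1 without SSC WT input replicate 2, 2 without BCSP WT input replicate 1, SSC Mettl3KO input replicate 1 or BCSP Mettl3KO input replicate 1, and 3 without SSC WT input replicate 1, pBCSP WT input replicate 2, SSC Mettl3KO input replicate 2 or BCSP Mettl3KO input replicate 2, each left out alone. In 6 tests by class that were added after the data were seen, the input rRNA share had a log2 difference of -0.68 (exact permutation within populations, p = 0.0185, 0.111 adjusted over the 6 exact tests), and the other 5 did not reach 0.05 before adjustment. Erythroid markers summed to 11.8 to 45.4 CPM in the Mettl3KO inputs, above the WT stem and progenitor inputs at 0.711 to 5.56 CPM, and cartilage markers to 70539 to 116521 CPM against 102414 to 117130 CPM. Their part in the differences between genotypes was not tested.

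In IP the shares of the genotypes overlapped. In the libraries labelled Mettl3KO they were 1.63% and 1.80% for BCSP, 1.59% and 2.004% for pBCSP, and 1.19% and 2.58% for SSC, a mean difference of -0.135 points from WT (two-sided exact permutation within populations, p = 0.556). With IP and input paired by replicate number, the log2 ratio of IP to input share was 2.09 in Mettl3KO and 1.83 in WT (difference 0.26, exact permutation within populations, p = 0.194). Mitochondrial transcripts were higher in IP than in input in the libraries labelled Mettl3KO as in WT, with 9 of 15 genes passing the cut-off in each of the 3 populations and 0 lower, where 8.04% to 8.70% of all genes tested were higher there.

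Taken by class, which was added after the data were seen, the rRNA ratio was higher in Mettl3KO. The ratio of mean shares for BCSP was 6.73 in Mettl3KO and 3.596 in WT, for pBCSP 7.79 and 4.76, and for SSC 9.91 and 5.41. For the test, IP and input were instead paired by replicate number. The difference in log2 ratio was 0.78 (two-sided exact permutation within populations, p = 0.00926, the smallest possible, and 0.0370 adjusted over 4 exact tests). For protein-coding genes it was -0.04 (p = 0.861) and for tRNAs -0.87 (p = 0.222) in the same exact tests. The first SSC Mettl3KO input held 38 counts of mt-Tq, where every other input of these 3 populations held 0 to 2. Taken apart, the log2 difference in rRNA share was -0.68 in input, as given above, and 0.10 in IP (exact permutation within populations, p = 0.713). Fewer genes were detected in the IP libraries labelled Mettl3KO (12685 to 14415) than in those of WT stem and progenitor cells (16250 to 18714), and the part of this in the ratios was not tested.

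Per gene, 0 of 16 genes passed the test of the change in ratio between genotypes, where 2.33% of 20360 genes passed in either direction (edgeR). At an unadjusted p under 0.05 there were 2, mt-Rnr1 with a change in log2 ratio of 0.94 (SE 0.27, edgeR adjusted p = 0.0740) and mt-Rnr2 with 0.89 (SE 0.29, edgeR adjusted p = 0.118). DESeq2 called 1 gene, and with replicate number as a block 1 passed, mt-Rnr2, higher in Mettl3KO. The median change was 0.09 over the 16 genes and -0.38 over all genes tested.

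Nuclear genes for mitochondrial transcription, RNA processing and translation were compared as a list of 70, chosen with earlier results of these data known. In IP against input 66 were tested, of which 9 were higher and 29 lower, beside 20.4% higher and 23.7% lower over all genes, with a median log2 ratio of -0.57 beside 0.09 for all genes. Fastk (a mitochondrial RNA-binding factor) had a log2 ratio of -2.52 and Nsun2 (an RNA cytosine methyltransferase) -1.86 and Pus1 (a pseudouridine synthase) -1.25, while Mtif2 (a mitochondrial translation initiation factor) had 0.77, Tfb1m (the dimethyltransferase of the 12S rRNA) 1.32 and Hsd17b10 (a subunit of the RNase P that cuts mitochondrial tRNAs) 0.58, all 6 past the threshold.

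In input, 27 of 65 listed genes were higher in stem and progenitor cells and 4 lower, beside 23.1% and 28.3% over all genes, with a median log2 difference of 0.34 beside -0.11 for all genes. Trmt10c (another RNase P subunit) had a log2 difference of 1.49, Alkbh1 (an RNA and DNA demethylase) 1.47 and Hsd17b10 1.22. Polg (the mitochondrial DNA polymerase) had -0.57 and Primpol (a primase and polymerase) -1.05, and Mettl4 had -0.71. These 6 passed the threshold.

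Between genotypes in input, 6 of 65 listed genes were higher and 1 lower, beside 3.83% and 2.64% over all genes, with a median log2 difference of 0.00 beside -0.04 for all genes. Nsun2 had a log2 difference of 0.48 (edgeR adjusted p = 0.0142). Elac2, which cuts the other end of mitochondrial tRNAs, had a log2 difference of 0.86 (edgeR adjusted p = 0.00507), Tefm, a transcription elongation factor, 0.69 (edgeR adjusted p = 0.0169), and Fastk -0.72 (edgeR adjusted p = 0.00355). Polrmt, the mitochondrial RNA polymerase, had -0.64 and did not pass (edgeR adjusted p = 0.0808).

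For the change in IP to input ratio, 0 of 66 listed genes were higher and 1 was lower between genotypes, beside 0.589% and 1.74% over all genes, with a median of -0.66 beside -0.38 for all genes, and the one that passed was Rpusd3 (a pseudouridine synthase family member) at -8.38 (SE 1.74, edgeR adjusted p = 0.0223). Between stem and progenitor and downstream cells 2 of 66 were higher and 0 lower, beside 3.06% and 1.77% over all genes, with a median of 0.12 beside -0.08 for all genes. Polg had a change in log2 ratio of 1.08 (edgeR adjusted p = 0.0270) and Fastkd2 (a mitochondrial RNA-binding factor) 1.34 (edgeR adjusted p = 0.0401).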

How the data were processed

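The authors trimmed reads with fastp 0.20.1, aligned them to GRCm38 with HISAT2 2.2.1 and counted reads per gene with featureCounts 2.0.1, and the deposited table holds raw counts. Options for strand, overlapping genes and reads with several matches are not given in the sources used here. The other deposited tables hold only the authors' own fold changes and p-values and were not used. Rows with date-like names shared by several genes (128 of 46959) were left out, at most 0.390% of counts in a library.

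Shares used all named genes as denominator. Counts were tested with edgeR 4.0.16 (R 4.3.3; quasi-likelihood, TMM, filterByExpr) over all genes with Benjamini-Hochberg adjustment, and DESeq2 1.42.0 was an alternative. Exact permutation tests ran in Python 3.11.15 and nuclear copies were sought with BLAST+ 2.17.0. The steps were tested on simulated data. Named with values were all mRNA and rRNA genes, the most abundant or called tRNAs, the most significant listed nuclear genes and Mettl3; the grouping by GGACT and by copies, the named copies and the tests marked as added were chosen after the data were seen. The members and lists were chosen with earlier results of these data known. Replicate pairs differed by more than sampling noise, so each library was counted once.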

Additional observations from a re-analysis of the deposited data

Results flagged for a closer look

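The log2 ratio of IP to input share differed between stem and progenitor and downstream populations, by tests of the difference itself that were added after the data were seen. The stem and progenitor mean minus the downstream mean was -1.08 for all mitochondrial genes, -0.72 for protein-coding genes, -1.31 for rRNAs and -1.39 for tRNAs, and in each of these 4 classes all 3 stem and progenitor populations lay below all 5 downstream populations. Summed erythroid and osteoblast markers were lower, and summed cartilage and muscle markers higher, in all stem and progenitor inputs than in all downstream inputs. Of the muscle markers, Tnnt3 had the highest median over the WT inputs, at 6.05 CPM. The ranges of summed endothelial and leukocyte markers overlapped, and the part of these markers was not tested.

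The log2 ratio of the mitochondrial rRNAs was 0.78 higher in the libraries labelled Mettl3KO than in WT, also by a test added after the data were seen, and Mettl3 itself was not lower in those libraries. That test paired IP and input by replicate number.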

How the results depend on the processing

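Calls within populations numbered 112 to 121 without 1 library. The 19 genes higher in IP, the IP share and ratio differences between stem and progenitor and downstream cells, and, in input, mt-Rnr1, mt-Rnr2, mt-Nd2, mt-Nd5, mt-Nd6 and mt-Cytb kept their direction and side of the threshold under every alternative tried. Calls in input between those cells ranged from 6 to 9 without 1 library: mt-Tq was lost in 16 and mt-Atp6 in 3 of 16 such fits, and mt-Nd1 was gained in 4. The change of the ratio per gene between stem and progenitor and downstream cells gave 5 calls, 8 with DESeq2's size factors in edgeR, 9 without a filter, 10 with DESeq2, and 5 to 10 without 1 library. The change of the ratio between genotypes gave 0 calls, 1 with DESeq2, 2 without a filter and 0 to 2 without 1 library. Genotype calls in input ranged from 1 to 5 without 1 library. For the mitochondrial share of input counts, Mettl3KO against WT, the difference was -0.0577 without the 2 rRNAs and -0.155 to -0.0946 without 1 library, that in IP share -0.367 to 0.0973 without 1 library, and that in log2 ratio -0.0380 without the 2 rRNAs. Over all genes, calls between genotypes in input were 1207, 2307 with DESeq2 and 1973 without a filter, those for the change of the ratio between genotypes were 475, 1834 with DESeq2 and 997 without a filter, and those for its change between stem and progenitor and downstream cells were 1227 and 1951 with DESeq2 (748 higher and 1203 lower). The causes were not tested, except that leaving out a class or a library removes its counts by construction.

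The study states that cells of a sort were divided between assays, but the labels do not say that a replicate number marks a sort, and the numbers were treated as names in the gene tests. The genotype tests of the log2 ratio of shares, in contrast, paired IP and input by replicate number. The correlation of IP and input replicate differences was 0.0348 to 0.432, not above 0.1 in every population. With replicate number as a block, the change of the ratio gave 9 calls between stem and progenitor and downstream cells and 1 between genotypes. For replicates alone, the mitochondrial share of input counts, Mettl3KO against WT, differed by -0.136 (replicate 1) and -0.114 (replicate 2), and that in the rRNA log2 ratio 0.65 (replicate 1) and 0.91 (replicate 2), where 8 arrangements cannot reach 0.05. Over all genes the block gave 96 higher and 92 lower against 120 and 355 for the change of the ratio between genotypes. The block changed no other count of calls by over 1.5 times.

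For single genes, 35 of 2566 alternative values changed sign, all of them in genes that did not pass. In input between stem and progenitor and downstream cells, leaving out 1 library gave -0.34 to 0.0753 for mt-Co2, -0.54 to 0.0845 for mt-Co3, -0.10 to 0.21 for mt-Nd3, -0.0511 to 0.87 for mt-Nd4l and -0.0339 to 0.44 for mt-Tp, and mt-Nd3 was -0.0312 with library size alone. Between genotypes in input it gave -0.35 to 0.0215 for mt-Nd2 and -0.29 to 0.0772 for mt-Tp. For the change of the ratio between genotypes it gave -0.0303 to 0.47 for mt-Co1 and -0.11 to 0.23 for mt-Nd5, and mt-Nd5 was -0.0351 with library size alone and -0.0143 without a filter. For the change between stem and progenitor and downstream cells it gave -0.49 to 0.0139 for mt-Co2. With 2 libraries a group, low counts limit statements on tRNAs and on mt-Nd3 and mt-Nd4l, and why these counts were low was not tested.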

Other observations

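Counts assigned to nuclear copies of mitochondrial genes were also higher in IP. Of 7 listed copies 7 were higher in IP (edgeR, adjusted p under 0.05), where 20.4% of 25365 genes were higher. Only 6 of the 7 were tested in the fit of WT inputs, so not all passed the filter on input counts. Gm28438 had 20 counts over the 16 WT inputs (highest 0.114 CPM) against 155 in IP, so its call carries no weight. The median log2 ratio was 2.64 over the 7 copies and 0.09 over all genes. Reads of a copy cannot be told apart from reads of its mitochondrial gene where both are equal, so these counts may come from either.

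Rn18s-rs5, a nuclear gene related to 18S rRNA that is no mitochondrial gene and was chosen after its values were seen, had a log2 ratio of IP to input of 3.34. Its change in log2 ratio was -2.14 between stem and progenitor and downstream cells (edgeR adjusted p = 0.00493), in the direction of the mitochondrial rRNAs. In input, however, it was higher in stem and progenitor cells (log2 difference 0.94, edgeR adjusted p = 0.0393), opposite to the mitochondrial rRNAs. Between genotypes its input difference was -0.94 (edgeR adjusted p = 0.0989) and its change in log2 ratio 0.86 (edgeR adjusted p = 0.272).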
